A study of Mus musculus with 15 samples.

Results

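The microvillus genes Vil1, Espn, Pls1, Eps8, Ezr, Myo1a, Cdhr2, Cdhr5, Ush1c and Myo7b encode structural proteins of the brush border, and their transcripts were followed in mouse small intestinal organoids that overexpress the transcription factor SOX9. They are 10 of the 78298 genes in the count files, were taken by their symbols, and all 10 were measured and tested. Bulk poly-A RNA was sequenced in 15 libraries, 3 per condition, of organoids grown from crypts and kept as 1 line per construct after lentiviral transduction and antibiotic selection. The control line, Halo-NLS, expressed the HaloTag with a nuclear localization signal and a V5 tag. The SOX9-Halo and SOX9-mEGFP lines expressed SOX9 fused to the HaloTag or to the green fluorescent protein mEGFP, with a V5 tag. Every line, the control included, drove its construct from the L30 promoter and carried puromycin resistance. Both SOX9 lines were sampled while budding and, after longer culture, as spheroids. The SOX9-Halo_spheroid organoids also carried histone H2B-mEGFP-V5 with zeocin resistance, and the SOX9-mEGFP_spheroid organoids H2B-mScarletI-V5 with neomycin resistance. Morphology, time in culture and the second transgene therefore changed together and cannot be told apart, and the SOX9-Halo spheroids had been in culture longest. The methods call the libraries of a condition biological replicates and let their passage differ slightly, but do not say that they came from separate animals or lines, so the p-values measure the spread between these libraries.

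Microvilli are finger-like protrusions that pack the apical surface of enterocytes, the absorptive cells of the gut, and enlarge the surface on which digestion and uptake take place. Each holds a core of parallel actin filaments that is held together by bundling proteins and tied to the surrounding membrane by linkers. In the small intestine, protocadherins at the tips bind those of neighbouring microvilli and draw them into clusters, and a cytoplasmic complex of a scaffold and a myosin motor holds these protocadherins at the tips.

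Libraries held 28062722 to 40559766 reads counted on genes (median 33491297). The transgene was checked through Sox9, whose reads can come from the native gene or the construct. Sox9 lay between 9.10 and 22.9 CPM (reads of a gene scaled to a common library size) in Halo-NLS, 193 and 339 in SOX9-mEGFP_budding, 39.8 and 314 in SOX9-Halo_budding, 260 and 705 in SOX9-mEGFP_spheroid, and 314 and 442 in SOX9-Halo_spheroid. Every SOX9 library was above every control library. The correlation of log2 CPM between replicates was 0.960 to 0.971 in Halo-NLS and 0.963 to 0.994 within the other conditions. General epithelial markers were present throughout: the summed level of 6 genes (Epcam, Cdh1, Krt8, Krt18, Krt19, Cldn7) ran from 4862 to 11336 CPM over all libraries. These genes mark epithelia of many organs, and the intestinal regulators Cdx1, Cdx2 and Hnf4a, described with the other regulators, were lower in the spheroids. Summed markers of mesenchymal cells stayed at or below 2.29 CPM and those of leukocytes and endothelium at or below 3.00 CPM.

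The genes sit on 9 chromosomes. In GRCm39, the build of the files, Vil1 spans chr1:74448535-74475933 on the plus strand, and the other members are on chromosomes 4 (Espn), 6 (Eps8), 7 (Cdhr5 and Ush1c), 9 (Pls1), 10 (Myo1a), 13 (Cdhr2), 17 (Ezr) and 18 (Myo7b). The upstream sequence of 4 of them is printed. Vil1 had the highest level per length in the control, Espn fell in both budding lines, Myo1a encodes the membrane motor, and Cdhr5 had the largest fall. All 4 fell in the SOX9-Halo spheroids against the control, and no sequence is printed for Ezr, Eps8 or Pls1, which behaved otherwise. Each run holds the 150 bases that end just before the annotated start of the gene's main transcript, 5′ to 3′ on the gene's strand, with CG dinucleotides in capitals. The windows are chr1:74448385-74448534 on the plus strand, chr4:152236888-152237037 on the minus strand, chr10:127540889-127541038 on the plus strand and chr7:140856705-140856854 on the minus strand.
Vil1: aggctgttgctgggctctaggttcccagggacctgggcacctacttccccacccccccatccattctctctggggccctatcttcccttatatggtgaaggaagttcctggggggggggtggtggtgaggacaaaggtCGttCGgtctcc
Espn: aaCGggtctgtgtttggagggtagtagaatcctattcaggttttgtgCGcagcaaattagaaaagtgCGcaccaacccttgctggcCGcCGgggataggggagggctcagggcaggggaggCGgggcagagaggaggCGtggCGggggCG
Myo1a: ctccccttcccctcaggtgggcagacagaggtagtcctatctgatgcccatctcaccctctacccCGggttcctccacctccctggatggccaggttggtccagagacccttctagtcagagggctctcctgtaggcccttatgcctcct
Cdhr5: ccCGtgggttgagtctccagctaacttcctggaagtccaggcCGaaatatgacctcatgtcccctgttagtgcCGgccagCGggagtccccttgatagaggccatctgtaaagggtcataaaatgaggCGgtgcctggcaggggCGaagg

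These runs differ in CG content, with 2 CG dinucleotides in that of Vil1, 9 in that of Espn, 1 in that of Myo1a and 6 in that of Cdhr5. Over a longer window of 300 bases, from 250 before the start to 50 from it, the same genes had 5, 13, 1 and 7, Ezr had 39, and the median of 21770 protein-coding promoters was 11. In that window, 5 motifs were searched on both strands. The HNF4 letters CAAAGTNCA occur in 1.38% of all promoters. The CDX letters CNATAAA occur in 10.6%, and the SOX letters ACAATG in 10.8%. The TEAD letters GGAATG occur in 14.0%, and TATAAA, the core promoter box, in 13.2%. None of the 5 exact strings was in the window of any of the 10 members, and other forms of the CDX, SOX and TEAD motifs were not searched. A pair of further motifs was added after the sequences were seen. CAAAGGTC, present in 1.13% of promoters, was found among the members in Vil1 alone, 19 to 12 bases before the start, and the CArG box, present in 1.54%, likewise, 65 to 56 bases before the start. These matches are descriptions of letters only.

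To compare genes with each other, CPM were divided by the exon length in kilobases. In Halo-NLS the order was Vil1 (291 ± 76.5 CPM per kilobase, SD, n = 3), Cdhr5 (226 ± 76.5), Cdhr2 (158 ± 40.5), Myo1a (117 ± 24.98), Ezr (72.8 ± 17.6), Ush1c (50.4 ± 9.24), Pls1 (46.0 ± 30.8), Myo7b (43.6 ± 18.4), Espn (29.8 ± 2.65) and Eps8 (4.35 ± 2.48). Neighbours in this order overlapped in their libraries, except Ezr with Ush1c and Espn with Eps8. In the SOX9-Halo spheroids the order began with Ezr (124 ± 15.9 CPM per kilobase), Pls1 (24.9 ± 4.65) and Vil1 (24.3 ± 4.28), of which Pls1 and Vil1 overlapped, and it ended with Myo7b (0.0534 ± 0.0232) and Ush1c (0.0493 ± 0.0392), which overlapped as well. In the SOX9-mEGFP spheroids Vil1 led (158 ± 15.9 CPM per kilobase), followed by Ezr (125 ± 13.2). The lengths are those of all annotated exons together, and the order depends on them: by the length of the main transcript Ezr was the third in Halo-NLS (161 ± 38.9) and led in the SOX9-mEGFP spheroids (276 ± 29.2, against 177 ± 17.7 for Vil1), and Ush1c and Myo7b changed places in the SOX9-Halo spheroids.

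**Figure D1:**
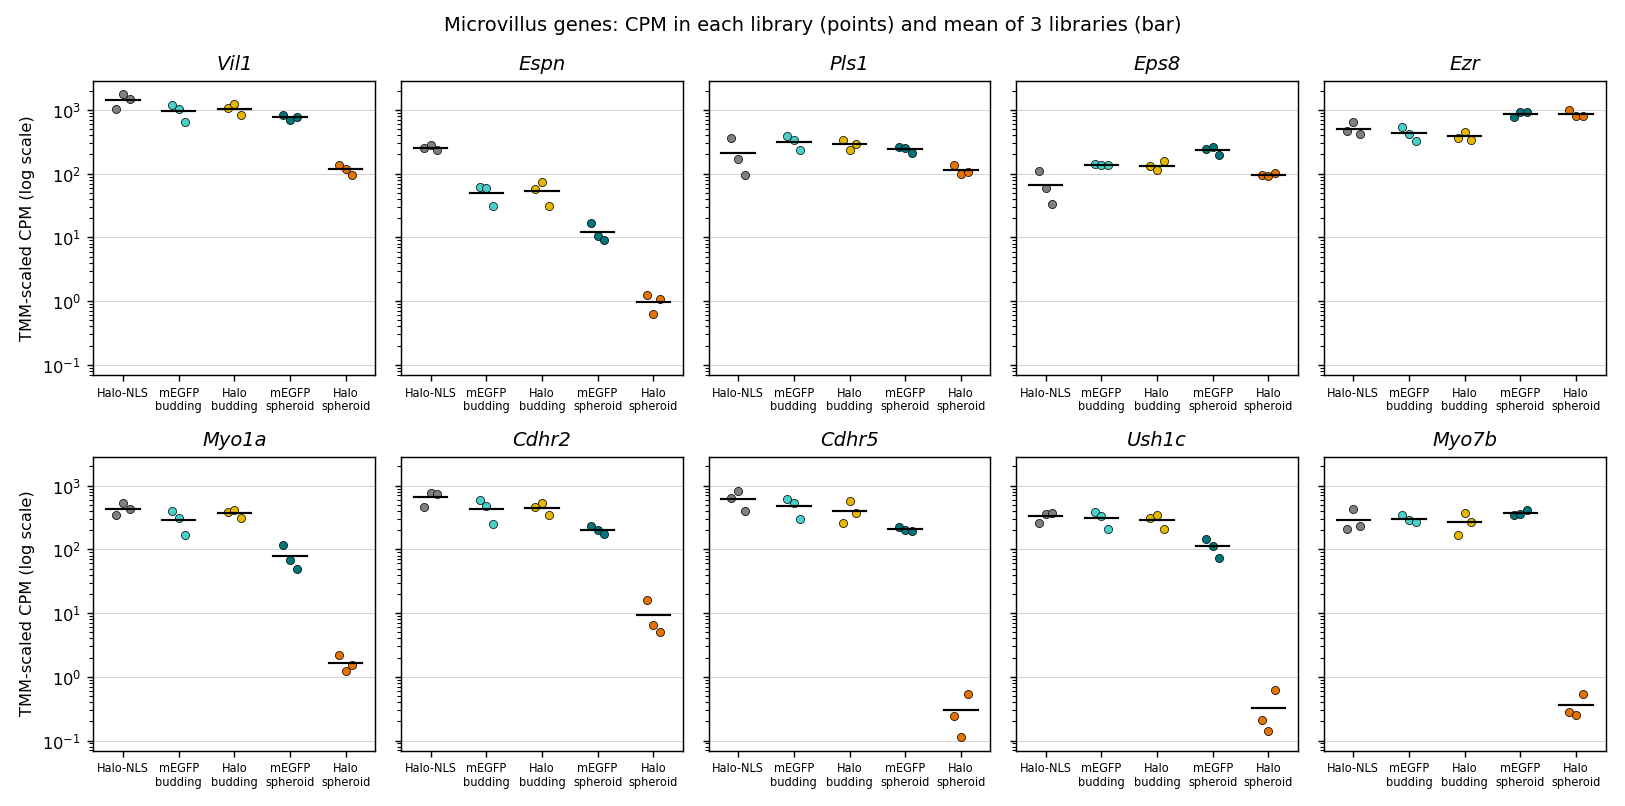
CPM of each microvillus gene in every library on a logarithmic axis, with points for the 3 libraries of a condition and a bar for their mean. In the SOX9-Halo spheroids Cdhr5, Ush1c and Myo7b lie below 1 CPM in all 3 libraries, while Ezr lies between 803 and 996 CPM.

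The libraries of compared conditions did not overlap for many genes. Against Halo-NLS, this held for 32.5% of all tested genes in SOX9-mEGFP_budding and 29.7% in SOX9-Halo_budding. In the spheroids it held for 56.5% (SOX9-mEGFP) and 54.8% (SOX9-Halo). Between budding and spheroid it held for 46.0% (SOX9-mEGFP) and 52.8% (SOX9-Halo), and between the spheroids of the lines for 48.6%. The actin core was considered first, through its bundling and capping proteins. Vil1 encodes villin, which bundles actin and can also sever it. Its level was 1016, 1752 and 1467 CPM in Halo-NLS, 1210, 1026 and 645 in SOX9-mEGFP_budding, and 1056, 1245 and 843 in SOX9-Halo_budding, so the budding lines overlapped with the control. It was 840.5, 687 and 775 CPM in SOX9-mEGFP_spheroid, below all control libraries, and 138, 119 and 96.7 in SOX9-Halo_spheroid, below all others. Espn encodes espin, a calcium-insensitive bundler that can lengthen the core. It was at 248, 279 and 234 CPM in Halo-NLS, 61.7, 58.5 and 31.3 in SOX9-mEGFP_budding, and 56.6, 74.7 and 31.3 in SOX9-Halo_budding. Espn continued at 16.7, 10.5 and 9.00 CPM in SOX9-mEGFP_spheroid and at 1.24, 0.620 and 1.07 in SOX9-Halo_spheroid. Both budding lines lay below all control libraries, and the spheroids of each line lay below its budding libraries.

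Pls1 encodes plastin-1 (fimbrin), a further bundler. It spread widely in Halo-NLS, at 366, 168 and 95.03 CPM, and was 391.5, 331 and 232 in SOX9-mEGFP_budding, 339, 234 and 287 in SOX9-Halo_budding, 264, 248.9 and 208 in SOX9-mEGFP_spheroid and 137, 97.2 and 106 in SOX9-Halo_spheroid. The last condition overlapped with the control but not with the other SOX9 conditions. Eps8 encodes a protein of the microvillus tip that caps and bundles actin. It was at 109, 59.5 and 33.3 CPM in Halo-NLS, 144, 135 and 136 in SOX9-mEGFP_budding and 130, 114 and 157 in SOX9-Halo_budding, so that both budding lines lay above all control libraries. In SOX9-mEGFP_spheroid Eps8 reached 242, 261 and 197 CPM, above all other libraries, and in SOX9-Halo_spheroid it was 95.6, 93.1 and 102, between control replicates 1 and 2.

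The membrane linkers were Ezr and Myo1a. Ezr encodes ezrin, which joins actin to membrane proteins. It was at 466, 648 and 414 CPM in Halo-NLS, 547, 414 and 329 in SOX9-mEGFP_budding and 356, 458 and 341 in SOX9-Halo_budding. In the spheroids Ezr was 768, 934 and 921 CPM (SOX9-mEGFP) and 996, 803 and 804 (SOX9-Halo), and all 6 spheroid libraries were above all 9 others. Myo1a encodes a class I myosin that bridges the core and the membrane. It was at 343, 528 and 437 CPM in Halo-NLS, 397, 311 and 169 in SOX9-mEGFP_budding, 390, 419 and 315 in SOX9-Halo_budding, 119, 69.3 and 48.9 in SOX9-mEGFP_spheroid, and 2.19, 1.21 and 1.53 in SOX9-Halo_spheroid. Myo1a was lower in every spheroid library than in every other library, and Ezr higher. The share of all genes with such a split, here and for Cdhr2 and Cdhr5 below, was not counted. Nor was it counted for 1 condition against several at once, as for Vil1, Pls1 and Eps8 above.

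The 4 remaining members build the intermicrovillar adhesion complex. Cdhr2 and Cdhr5 encode the protocadherins that link microvillus tips. Cdhr2 was at 462, 766 and 736 CPM in Halo-NLS, 584, 476 and 250 in SOX9-mEGFP_budding, 455, 527 and 347 in SOX9-Halo_budding, 229, 203 and 174 in SOX9-mEGFP_spheroid and 16.2, 6.51 and 5.02 in SOX9-Halo_spheroid. Cdhr5 was at 633, 825 and 405 CPM in Halo-NLS, 618, 540 and 302 in SOX9-mEGFP_budding, 261, 573 and 369 in SOX9-Halo_budding, 224, 198 and 195 in SOX9-mEGFP_spheroid and 0.247, 0.113 and 0.536 in SOX9-Halo_spheroid. Both were lower in every spheroid library than in every other library. Ush1c encodes harmonin, the scaffold of the complex, and was at 261, 361 and 370 CPM in Halo-NLS, 384, 332 and 205 in SOX9-mEGFP_budding, 308, 343 and 206 in SOX9-Halo_budding, 146, 115 and 72.8 in SOX9-mEGFP_spheroid and 0.212, 0.141 and 0.617 in SOX9-Halo_spheroid. Myo7b encodes the motor. It was at 211, 434 and 231 CPM in Halo-NLS, 348, 284 and 271 in SOX9-mEGFP_budding, 167, 367 and 264 in SOX9-Halo_budding, 347, 362 and 408 in SOX9-mEGFP_spheroid and 0.282, 0.254 and 0.536 in SOX9-Halo_spheroid. Myo7b in the SOX9-mEGFP spheroids therefore overlapped with the control, unlike Cdhr2, Cdhr5 and Ush1c. Summed over these 4 genes, the complex was at 1899 ± 432 CPM (SD, n = 3) in Halo-NLS, 891 ± 48.95 in SOX9-mEGFP_spheroid and 10.2 ± 5.82 in SOX9-Halo_spheroid.

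The first comparison set the budding SOX9 lines against Halo-NLS. These are separate lines that also differ in time in culture, and SOX9-mEGFP_budding differs in its tag as well. An effect of SOX9 cannot be told apart from these differences. Espn fell in both lines and was the member that passed the test. A gene was called if its adjusted p by edgeR's quasi-likelihood test (Benjamini-Hochberg over 17560 genes) did not exceed 0.01, it changed by 1 or more on the log2 scale in either direction, and its normalized counts averaged 10 or more. Espn fell by 2.33 on the log2 scale in SOX9-mEGFP_budding (SE 0.36, adjusted p = 0.0011) and by 2.23 in SOX9-Halo_budding (SE 0.35, adjusted p = 0.0016). Of all genes tested, 2.76% were called in SOX9-mEGFP_budding (0.763% lower and 1.99% higher) and 3.75% in SOX9-Halo_budding (1.26% lower and 2.49% higher). The SOX9-Halo call is lost without SOX9-Halo_budding replicate 3 (log2 fold change -1.94, adjusted p = 0.0103) and in a fit of the compared libraries alone (-2.22, adjusted p = 0.0277). Eps8 had log2 fold changes of 1.04 (SE 0.31) and 0.99 (SE 0.31), with adjusted p-values of 0.0368 and 0.037 that missed the threshold. Halo-NLS replicate 1 was the control library nearest to the budding lines in Eps8 and Pls1. Without it, Eps8 passed with 1.58 (adjusted p = 0.000604) and 1.53 (adjusted p = 0.00068), and Pls1 passed in SOX9-mEGFP_budding with 1.28 (adjusted p = 0.00602). That fit kept Halo-NLS replicate 3, which was lowest in both genes and had the most genes detected of all libraries (40375). The median log2 fold change of the members was -0.30 and -0.31, against 0.03 and 0.01 over all genes. The 2 comparisons share their control libraries.

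Between the budding lines, which differ in the tag, in being separate lines and in time in culture, all of which cannot be told apart, no difference was detected for any member. Called by edgeR were 0 of 10, 0 had an unadjusted p under 0.05, and DESeq2 also called 0, where edgeR called 0.456% of all genes (0.29% higher and 0.165% lower in SOX9-Halo_budding). Log2 differences ran from -0.28 to 0.36, and the 95% intervals of all members lay between -1.07 and 1.08. Differences inside a member's own interval are not excluded.

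Against the same control, the SOX9-mEGFP spheroids were lower for 5 members and higher for 1. Espn fell by 4.39 on the log2 scale (SE 0.39, adjusted p = 6.93e-07) and Myo1a by 2.46 (SE 0.36, adjusted p = 6.71e-05). From the adhesion complex, Cdhr2 fell by 1.69 (SE 0.40), Cdhr5 by 1.59 (SE 0.38) and Ush1c by 1.57 (SE 0.37), with adjusted p-values of 0.00288, 0.00329 and 0.00269. Eps8 rose by 1.79 (SE 0.31, adjusted p = 0.000305), a call that is lost in a fit of the compared libraries alone (1.73, adjusted p = 0.0108). Over all genes 27.5% were called (12.1% lower and 15.3% higher). Vil1 (log2 fold change -0.88, adjusted p = 0.0116) and Ezr (0.78, adjusted p = 0.0106) missed both thresholds, and Pls1 (0.20, SE 0.36) and Myo7b (0.35, SE 0.31, 95% interval -0.32 to 1.01) were within their error. The calls of the 3 adhesion genes are not firm: without SOX9-mEGFP_spheroid replicate 2 or 3 they are lost, at adjusted p-values from 0.0114 to 0.0158, which leaves 3 members called, and Cdhr5 is also lost without Halo-NLS replicate 2 (0.0162) or SOX9-mEGFP_spheroid replicate 1 (0.0107) and Cdhr2 without Halo-NLS replicate 2 (0.0106) or 3 (0.0105). The Vil1 value passes without Halo-NLS replicate 1 (-1.06, adjusted p = 0.00384).

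The SOX9-Halo spheroids were lower than Halo-NLS for 7 members, where 28.9% of all genes were called (15.3% lower and 13.6% higher). All 4 genes of the adhesion complex fell, with log2 fold changes of -10.98 for Cdhr5 (SE 0.59), -9.95 for Ush1c (SE 0.55), -9.64 for Myo7b (SE 0.47) and -6.15 for Cdhr2 (SE 0.49). Myo1a (-8.06, SE 0.47), Espn (-8.02, SE 0.47) and Vil1 (-3.58, SE 0.28) fell as well. The adjusted p-values of these 7 ran from 2.0e-09 to 1.19e-07. They kept their calls when any 1 library was left out. Ezr (0.77, SE 0.23, adjusted p = 0.0113), Eps8 (0.53, SE 0.30, adjusted p = 0.166) and Pls1 (-0.89, SE 0.37, adjusted p = 0.0586) did not pass. Eps8 passed without Halo-NLS replicate 1 (1.07, adjusted p = 0.00216) and Pls1 without Halo-NLS replicate 3 (-1.23, adjusted p = 0.00513), the control libraries that were highest in Eps8 and lowest in Pls1. The median over the members was -7.09, against -0.01 over all genes.

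**Figure D2:**
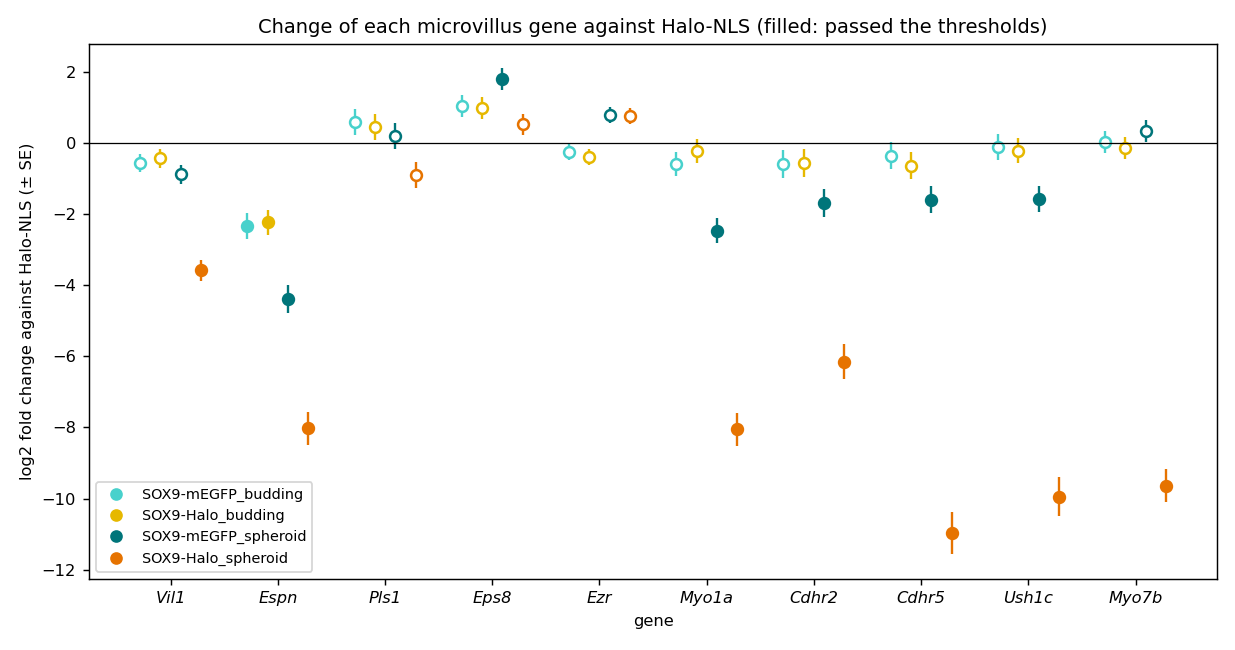
Log2 fold change of each microvillus gene against Halo-NLS in the 4 SOX9 conditions, with its standard error as the bar and a filled point where the gene passed the thresholds. Espn is filled in all 4 conditions, and the SOX9-Halo spheroids reach -10.98 for Cdhr5.

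The largest folds rest on few reads, since the 3 SOX9-Halo spheroid libraries together held 31 reads of Cdhr5, 34 of Ush1c, 37 of Myo7b, 97 of Espn, 162 of Myo1a and 877 of Cdhr2. The same genes had 51216, 27148, 24292, 20778, 35904 and 53915 reads in the 3 control libraries. From the summed reads Cdhr5 was 2046-fold lower (exact 95% interval 1441 to 3012), Ush1c 989-fold (707 to 1428), Myo7b 813-fold (590 to 1155), Espn 265-fold (217 to 327), Myo1a 274-fold (235 to 322) and Cdhr2 76.1-fold (71.2 to 81.5). These intervals cover counting error only. Every one of the 3 libraries still held reads of each gene, with at least 4 for Cdhr5, so that none was at 0. In bulk RNA, fewer enterocytes and less RNA per enterocyte cannot be told apart. The 7 enterocyte markers, Fabp1, Fabp2, Apoa1, Apoa4, Rbp2 and Krt20 among them, were summed in each library. Their summed level was 13059 to 22114 CPM in Halo-NLS, 3753 to 15047 in SOX9-mEGFP_budding and 7367 to 17264 in SOX9-Halo_budding. It was 385 to 1081 CPM in SOX9-mEGFP_spheroid and 4.12 to 12.4 in SOX9-Halo_spheroid, with 6 of 7 and 7 of 7 called lower. The summed members changed less, from 4786 ± 909 CPM (SD, n = 3) in Halo-NLS to 3098 ± 93.7 in SOX9-mEGFP_spheroid and 1209 ± 155 in SOX9-Halo_spheroid. Goblet, Paneth and enteroendocrine markers, 5 genes each, were all called lower in SOX9-Halo_spheroid too. In SOX9-mEGFP_spheroid the 5 enteroendocrine markers were called lower, 4 Paneth markers were called lower and 1 higher, and the goblet markers summed to 2251 to 3566 CPM, against 2266 to 8194 in Halo-NLS and 16.9 to 22.9 in SOX9-Halo_spheroid. Of the 6 general epithelial markers, Epcam (-1.11) and Cldn7 (-1.87) fell and Krt18 rose (1.58) in SOX9-Halo_spheroid. Their part in the result was not tested.

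The change from budding to spheroid was then followed within each line. In the SOX9-Halo line 8 members fell and Ezr rose, where 25.3% of all genes were called (14.7% lower and 10.5% higher). The falls ran from Pls1 (1.34, SE 0.37, adjusted p = 0.00884) to Cdhr5 (10.35, SE 0.58), and Eps8 (-0.46, SE 0.30) did not pass. Ezr rose by 1.17 (SE 0.23, adjusted p = 0.000673) and kept its call whichever library was left out, whereas Pls1 lost its call without any 1 of the 6 libraries of the line (adjusted p from 0.0103 to 0.0352). In the SOX9-mEGFP line 3 members fell and Ezr rose, where 16.4% of all genes were called (7.88% lower and 8.55% higher). Espn fell by 2.06 (SE 0.35, adjusted p = 0.000412), Myo1a by 1.89 (SE 0.35, adjusted p = 0.00079) and Ush1c by 1.47 (SE 0.36, adjusted p = 0.00654), and Ezr rose by 1.03 (SE 0.23, adjusted p = 0.00295). The Ush1c and Ezr calls depend on single libraries: without SOX9-mEGFP_budding replicate 2, SOX9-mEGFP_spheroid replicate 2 or SOX9-mEGFP_spheroid replicate 3 both are lost and 2 members remain called, and without SOX9-mEGFP_budding replicate 1 Ush1c (-1.27, adjusted p = 0.0315) and without replicate 3 Ezr (0.81, adjusted p = 0.0283) is lost. Ezr also falls short of the log2 threshold with DESeq2's size factors (1.00 after rounding). Cdhr5 (-1.24, adjusted p = 0.0221) and Cdhr2 (-1.11, adjusted p = 0.0456) did not pass.

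How far the lines differed in this change was tested as an interaction, with 7.39% of all genes called (1.81% with a higher and 5.58% with a lower value for SOX9-Halo). For 7 members the log2 change from budding to spheroid was more negative in the SOX9-Halo line. The difference was -9.81 on the log2 scale for Myo7b (SE 0.54), -9.11 for Cdhr5 (SE 0.65), -8.27 for Ush1c (SE 0.61), -5.95 for Myo1a (SE 0.53), -4.48 for Cdhr2 (SE 0.57), -3.73 for Espn (SE 0.52) and -2.83 for Vil1 (SE 0.37), with adjusted p-values from 4.93e-08 to 0.000154. Ezr did not differ beyond its error (0.15, SE 0.32, 95% interval -0.53 to 0.83), and neither Eps8 (-1.22, SE 0.43, adjusted p = 0.0799) nor Pls1 (-0.93, SE 0.52, adjusted p = 0.305) passed. Compared directly, SOX9-Halo spheroids were lower than SOX9-mEGFP spheroids for these 7 members and for Eps8 (log2 difference -1.27, SE 0.31, adjusted p = 0.00663), where 13.2% of all genes were called (9.58% lower and 3.59% higher). Eps8 lost this call whichever 1 library of the 2 conditions was left out (adjusted p from 0.01004 to 0.0325) or library sizes were used without TMM (0.0113), and Ezr was level (-0.01, SE 0.22, 95% interval -0.49 to 0.47).

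**Figure D3:**
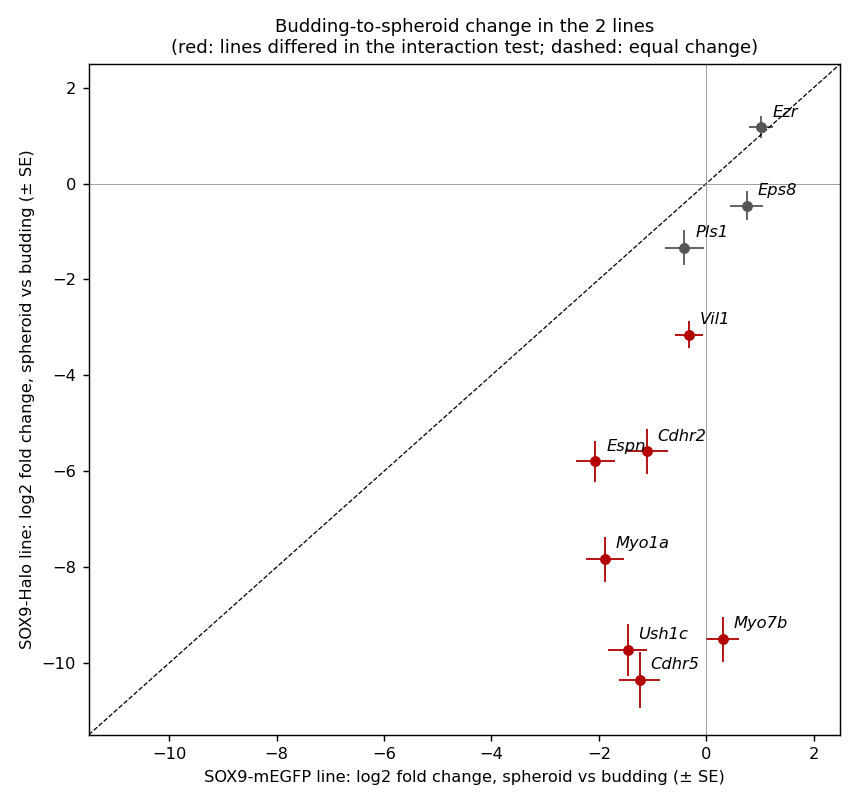
Log2 fold change from budding to spheroid in the SOX9-mEGFP line (x axis) against the SOX9-Halo line (y axis), with standard errors as bars, red where the lines differed and a dashed line at equal change. Ezr lies on the dashed line, at 1.03 and 1.17, and Myo7b lies farthest from it, at 0.31 and -9.51.

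Ratios between members, which do not depend on how libraries are scaled, are given per library. The ratio of Myo7b to Ush1c reads was 0.808, 1.201 and 0.625 in Halo-NLS and 2.38, 3.15 and 5.60 in SOX9-mEGFP_spheroid, with no overlap, and 1.33, 1.80 and 0.870 in SOX9-Halo_spheroid, where both genes were near 0. The ratio of Cdhr2 to Cdhr5, the binding partners, was 0.729, 0.929 and 1.81 in Halo-NLS and 1.02, 1.03 and 0.893 in SOX9-mEGFP_spheroid, but 65.6, 57.8 and 9.35 in SOX9-Halo_spheroid, on 4 to 20 reads of Cdhr5 per library. The ratio of Ezr to Vil1 was 0.370 ± 0.0883 (SD, n = 3) in Halo-NLS, 1.15 ± 0.225 in SOX9-mEGFP_spheroid and 7.43 ± 0.798 in SOX9-Halo_spheroid. The ratio of Espn to Vil1 was 0.244, 0.159 and 0.160 in Halo-NLS, 0.0510, 0.0570 and 0.0485 in SOX9-mEGFP_budding and 0.0536, 0.0600 and 0.0371 in SOX9-Halo_budding, with no overlap between the control and the budding lines.

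Most members belong to families, whose other genes were counted separately. Of 21 paralogs tested (25 listed), 11 rose and 6 fell in SOX9-Halo_spheroid against Halo-NLS, and 10 rose and 2 fell in SOX9-mEGFP_spheroid. The median log2 fold change over the tested paralogs was 1.33 and 1.29, against -7.09 and -1.23 over the members. The filter kept a gene that was high in any condition, Rdx and Msn through the spheroids alone, and dropped paralogs near 0 throughout. The counts and medians of the paralogs are therefore partly set by the filter and describe the tested genes only. The ezrin paralogs Rdx (radixin) and Msn (moesin), which also link actin to the membrane, were at or below 0.449 CPM in all control libraries. Rdx was at 9.78, 20.4 and 22.8 CPM in SOX9-mEGFP_spheroid and 76.1, 72.6 and 81.6 in SOX9-Halo_spheroid, and Msn at 43.8, 49.8 and 64.8, and 182, 189 and 221. The share of Ezr in the reads of these 3 genes thus went from 99.9% ± 0.0733 (SD, n = 3) in Halo-NLS to 92.6% ± 1.13 and 75.8% ± 3.39, while the summed level of the family went from 510 ± 123 to 945 ± 107 and 1142 ± 99.5 CPM.

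Of the other paralogs, Vill, Capg, Pls3, Lcp1, Myo7a, Eps8l1 and Eps8l3 were named after their values were seen. Vill, a villin paralog, was at 1.01, 1.27 and 1.69 CPM in Halo-NLS, 134, 184 and 175 in SOX9-mEGFP_spheroid and 228, 166 and 135 in SOX9-Halo_spheroid (log2 fold changes 6.95 and 7.06, SE 0.34 for both). Capg, a capping protein of the gelsolin family, fell in the SOX9-mEGFP and SOX9-Halo budding lines (-2.55 and -1.58) and rose in the spheroids (3.45 and 4.41). Scin (scinderin, a severing protein) fell by 6.43 in SOX9-mEGFP_spheroid, and in SOX9-Halo_spheroid it was at 0.0706, 0 and 0.134 CPM. The share of Vil1 in the reads of the villin and gelsolin family was 75.2% ± 5.37 in Halo-NLS, 55.3% ± 4.69 in SOX9-mEGFP_spheroid and 12.7% ± 0.579 in SOX9-Halo_spheroid. Pls3, another plastin, was higher in the budding lines as well as in the spheroids. It was at 0.117, 0.103 and 0.225 CPM in Halo-NLS, 1.27, 1.39 and 2.37 in SOX9-mEGFP_budding and 1.85, 0.522 and 2.24 in SOX9-Halo_budding. Over both spheroids Pls3 was at 17.8 to 25.1 CPM. Lcp1, the remaining plastin, fell by 2.38 in SOX9-Halo_spheroid, and the share of Pls1 in the plastins was 67.1% ± 9.13 in Halo-NLS and 74.2% ± 2.90 in SOX9-Halo_spheroid, within their spread.

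Among the class I myosins, Myo1c rose by 1.15 and 1.33 in the spheroids of the SOX9-mEGFP and SOX9-Halo lines, and Myo1d, the most abundant paralog, did not pass in either (-0.26 and -0.61). The share of Myo1a in the class I myosins was 47.2% ± 8.59 in Halo-NLS, 10.5% ± 6.08 in SOX9-mEGFP_spheroid and 0.239% ± 0.0704 in SOX9-Halo_spheroid, at family sums of 948 ± 308, 785 ± 92.0 and 687 ± 10.3 CPM. Myo7a, the paralog of Myo7b, fell by 3.97 (SE 0.54) in SOX9-Halo_spheroid and was level in SOX9-mEGFP_spheroid (-0.02, SE 0.47). Of the Eps8 paralogs, Eps8l1 rose by 1.97 and Eps8l2 and Eps8l3 fell by 1.86 and 5.06 in SOX9-Halo_spheroid.

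**Figure D4:**
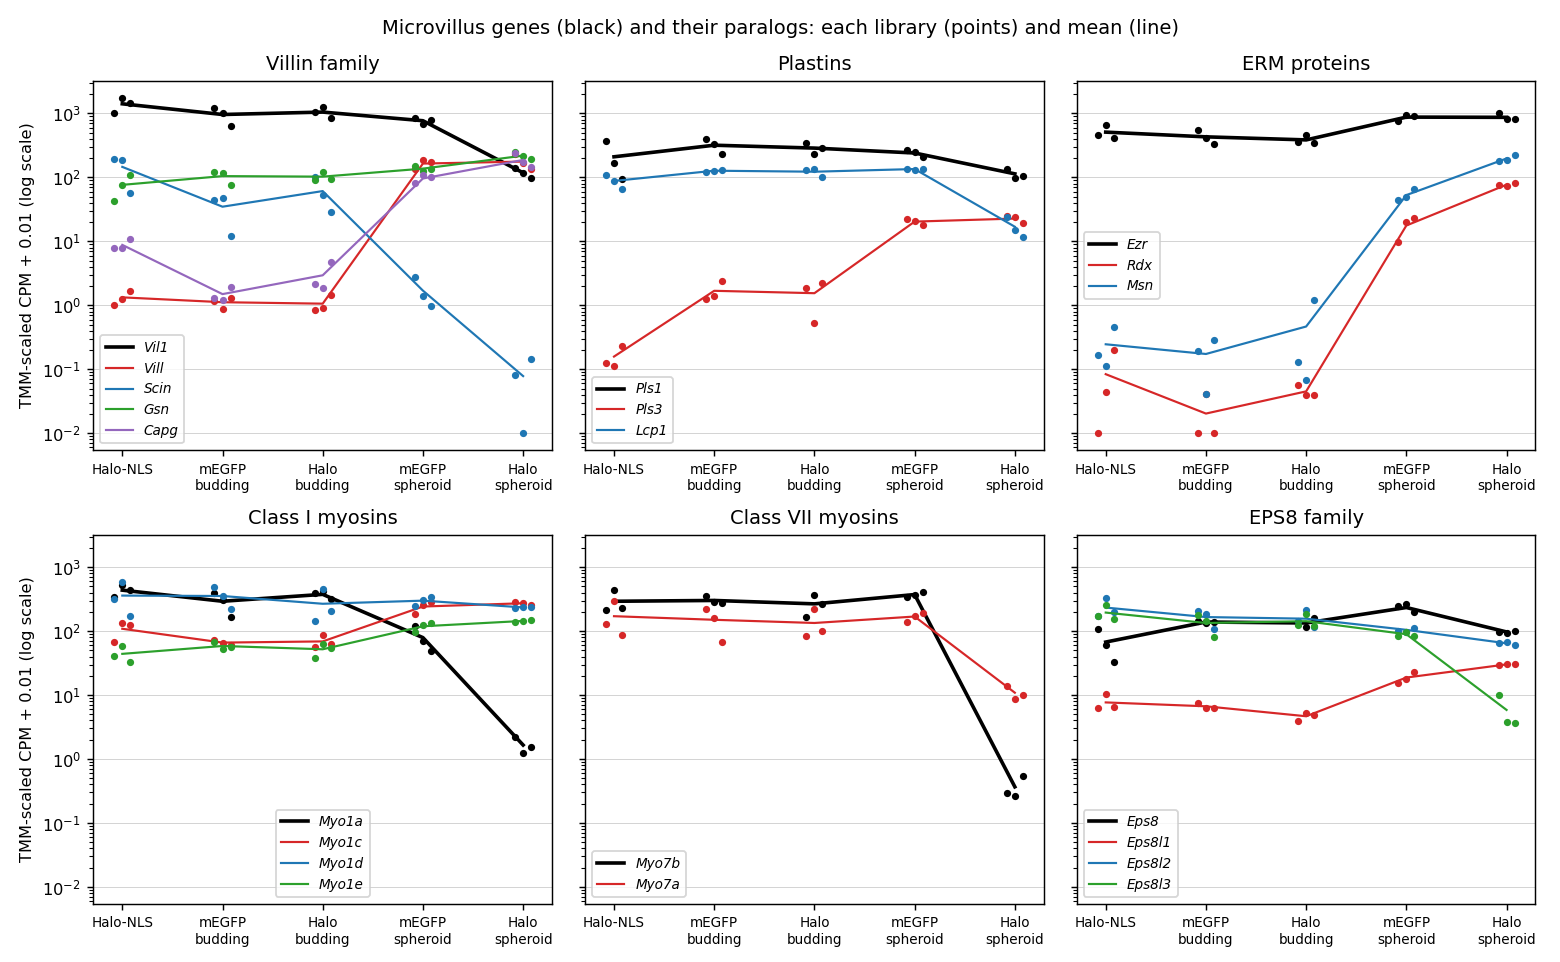
CPM + 0.01, on a logarithmic axis, of microvillus genes (black) and paralogs in 6 protein families, with points for libraries and lines that join the means of the conditions and do not stand for a time course. Rdx and Msn lie at or below 1.19 CPM in all 9 libraries of Halo-NLS and the budding lines and between 9.78 and 221 CPM in the 6 spheroid libraries.

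Further proteins of the brush border were taken from a list of partners. Of 17 tested, 6 fell and 2 rose in SOX9-Halo_spheroid, and 3 fell and 3 rose in SOX9-mEGFP_spheroid, with medians of -0.99 and 0.46. Over all genes, 15.3% were called lower and 13.6% higher in SOX9-Halo_spheroid, and 12.1% lower and 15.3% higher in SOX9-mEGFP_spheroid, and the counts of the other lists are to be read against the same shares. The members of the adhesion complex outside the 10 genes, Calml4 (the light chain of the motor) and Anks4b (an adaptor), fell by 3.85 (SE 0.42) and 3.18 (SE 0.43) in SOX9-Halo_spheroid. In SOX9-mEGFP_spheroid they did not pass, at -0.69 (SE 0.38) and -0.02 (SE 0.40), and Myo7b did not pass there either. Baiap2l2, a membrane-bending protein of microvilli, fell in SOX9-Halo_spheroid (-9.66) and SOX9-mEGFP_spheroid (-3.19). The scaffold Pdzk1 was at 14.5, 12.7 and 5.28 CPM in Halo-NLS, 0.185, 0.269 and 0.0284 in SOX9-mEGFP_spheroid and 0.106, 0.0564 and 0 in SOX9-Halo_spheroid, and was called lower in both. Prom1, which encodes prominin-1 of membrane protrusions, rose in SOX9-Halo_spheroid (2.12) and SOX9-mEGFP_spheroid (2.70) and in SOX9-mEGFP_budding by 1.11 (SE 0.24, adjusted p = 0.00977). Stk10, a kinase that phosphorylates ezrin family proteins, rose by 1.97 in SOX9-Halo_spheroid. Anks4b was named after its values were seen. Lima1, the most abundant partner, did not pass (-0.91 and 0.46).

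For the general actin machinery and the lists below, values are given for SOX9-Halo_spheroid first and SOX9-mEGFP_spheroid second, each against Halo-NLS. Of 19 genes of the core actin and terminal web list, 3 rose and 1 fell in SOX9-Halo_spheroid and 4 rose and 1 fell in SOX9-mEGFP_spheroid, with medians of -0.05 and -0.01. Actb had log2 fold changes of -0.97 and -0.53 and Actg1 of -0.15 and -0.50, none past the thresholds, and Cfl1 (cofilin) fell in SOX9-mEGFP_spheroid by 1.16. Tmod3, which caps filament ends, rose by 1.84 and 1.29, and the non-muscle myosin Myh14 fell by 1.44 in SOX9-Halo_spheroid. Of 11 genes of apical vesicle traffic, the anion exchanger Slc26a3 was called lower in both spheroids, at 102, 26.2 and 28.4 CPM in Halo-NLS, 0.106, 0.0282 and 0.107 in SOX9-Halo_spheroid and 2.86, 0.895 and 0.142 in SOX9-mEGFP_spheroid. Rab8a fell in SOX9-mEGFP_spheroid by 1.03, and the others did not pass, among them Myo5b, a motor that carries apical vesicles (-0.73 and -0.02).

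The digestive enzymes that the brush border carries were counted next. Of 14 tested, 13 fell in SOX9-Halo_spheroid (median -8.67) and 8 in SOX9-mEGFP_spheroid (median -3.25). Sis (sucrase-isomaltase) fell (-10.10 and -3.73), as did Alpi, intestinal alkaline phosphatase (-11.09 and -5.36). Anpep (aminopeptidase N) was the enzyme that did not pass in SOX9-Halo_spheroid (0.33, and -1.29 with adjusted p = 0.0117 in SOX9-mEGFP_spheroid). Mgam (maltase-glucoamylase) fell by 5.01 in SOX9-Halo_spheroid and had 0.77 in SOX9-mEGFP_spheroid, which did not pass. Of 12 regulators of enterocyte genes, 7 fell in SOX9-Halo_spheroid, and 7 fell and 1 rose in SOX9-mEGFP_spheroid. Hnf4a, a nuclear receptor of enterocytes, fell in both (-4.61, SE 0.28, and -1.36, SE 0.24). The homeobox genes Cdx1 (-11.00 and -6.46) and Cdx2 (-7.35 and -2.51) fell too. Hnf4g was called lower in both, at 292, 130 and 48.4 CPM in Halo-NLS, 0.0706, 0 and 0.0268 in SOX9-Halo_spheroid and 32.0, 15.6 and 7.41 in SOX9-mEGFP_spheroid. In SOX9-mEGFP_spheroid Klf4 rose (1.46) and Gata4 fell (-1.63).

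Patterns were compared over the 15 libraries. Pearson's r of log2 CPM was 0.990 or above for Vil1 with Cdhr2 (0.991) and for Cdhr5 with Ush1c (0.995), 0.824 for Espn with Myo7b, and negative for Ezr with Vil1 (-0.54) and Myo1a (-0.68). Eps8 was near 0 with Vil1 (-0.02) and Pls1 stood between (0.59 with Vil1, 0.60 with Eps8). Among 11054 abundant genes, those most like each member in pattern were Angptl4 for Vil1 (0.988), Itpka for Espn (0.987), Ocln for Pls1 (0.978), Wac for Eps8 (0.968), Cnksr1 for Ezr (0.976), Cyp4f14 for Myo1a (0.998), Hnf4a for Cdhr2 (0.993), Themis3 for Cdhr5 (0.994), Clrn3 for Ush1c (0.996) and Mgat3 for Myo7b (0.995). These values describe 15 libraries of 5 conditions that share lines, and carry no test.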

How the data were processed

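Poly-A RNA libraries were made with NEBNext Ultra II kits. The authors trimmed reads with cutadapt 4.5, aligned them to mm39 (GRCm39) with STAR, kept unique alignments and counted them on genes with HTSeq 2.0.2 in union mode without strand. The deposited files hold whole-number counts per gene, not normalized, and 1 file per library was used. The authors' normalized counts and comparison tables (fold changes and p-values) were not used. Because strand was ignored, reads that overlap 2 genes were dropped, and exons of Vil1, Espn, Ezr, Myo1a, Myo7b, Ush1c and Pls1 overlap genes on the opposite strand. Ambiguous reads made up 9.65% to 13.6%.

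Counts were scaled with TMM and tested with edgeR 4.0.16 (limma 3.58.1, R 4.3.3) in 1 quasi-likelihood model with 1 coefficient per condition over all 15 libraries. filterByExpr left 17560 genes. SE were obtained by dividing the size of each log2 fold change by the square root of its F. CPM are TMM-scaled. Python 3.11.15, pandas 2.3.3, scipy 1.17.1 and matplotlib 3.10.9 were used for summaries. The fit was tested on simulated data. DESeq2 1.42.0, other scalings, filters, thresholds, a replicate block and leaving out each library were alternatives. Positions and exon lengths came from GENCODE M39, which holds 78168 of the 78298 identifiers, and promoters from GRCm39.

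The members and lists were chosen with earlier results of these data known. Genes outside the members were named by a rule: from each list the 3 most abundant and the 2 called genes with the largest rise and the 2 with the largest fall per spheroid condition against Halo-NLS, and per member the most correlated gene whose normalized counts averaged 100 or more. Some genes that the rule names are not reported here. The replicate numbers were checked as pairs: deviations from condition means correlated above 0.1 in 18 of 30 same-numbered pairs (median r 0.226) over 11054 genes. For the compared SOX9-Halo_budding and SOX9-Halo_spheroid all 3 pairs did (r = 0.439, 0.288 and 0.407), so there the numbers were taken, from the data alone, to pair the libraries. All 3 also did for SOX9-mEGFP_budding with SOX9-Halo_spheroid (r = 0.375, 0.121 and 0.363), which are different lines and were not compared. The main model did not use the pairing.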

Additional observations from a re-analysis of the deposited data

Results flagged for a closer look

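For 7 of the 10 members, the SOX9-Halo and SOX9-mEGFP lines differed in how far they changed from budding to spheroid, by the interaction test of edgeR. The difference (SOX9-Halo minus SOX9-mEGFP, log2 scale) was -2.83 for Vil1, -3.73 for Espn, -5.95 for Myo1a, -9.81 for Myo7b, -4.48 for Cdhr2, -9.11 for Cdhr5 and -8.27 for Ush1c. The spheroids of the lines also differ as separate lines, in passage number and in the second transgene, which cannot be told apart from the tag.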

How the results depend on the processing

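Of 43 member results that passed the thresholds, 32 did so under every alternative, and no called value changed sign. Over all alternatives, 34 values that were called in neither fit did change sign. The count of members called in SOX9-mEGFP_budding against Halo-NLS was 1, and 2 with no filter on low counts or at an adjusted p of at most 0.05, and 1 to 3 when 1 library was left out (3 without Halo-NLS replicate 1). In SOX9-Halo_budding against Halo-NLS it was 1, then 2 with no filter, 0 with only the libraries compared in the fit, and 0 to 2 with 1 library left out (0 without SOX9-Halo_budding replicate 3, 2 without Halo-NLS replicate 1). In SOX9-mEGFP_spheroid against Halo-NLS it was 6, then 2 when a log2 change of 2 was required, and 3 to 7 with 1 library left out. In SOX9-mEGFP_spheroid against SOX9-mEGFP_budding it was 4, then 1 when a log2 change of 2 was required, and 2 to 4 with 1 library left out. The cause of these changes was not tested. The share of all genes called under each of these settings is not given here, so the counts describe the members alone. Library sizes without TMM moved the median of all genes against Halo-NLS by 0.26 to 0.30, and there Ezr passed in both spheroids (1.04 and 1.05), while small values of Ush1c, Myo1a and Myo7b in the budding lines, and of Eps8 and Ezr between lines, none called, changed sign.

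With the replicate number as a block over all 15 libraries, 9 members were called between the spheroids in place of 8, Pls1 being the addition (-1.09, adjusted p = 0.00998), and the other 8 comparisons kept their counts. A replicate block within the SOX9-Halo line, added after the data were seen, gave 9 called, the same number as without it. The number of genes detected was lowest in replicate 2 of all 5 conditions.

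The precision is limited by 3 libraries per condition with a common biological coefficient of variation of 0.302. Cdhr5, Ush1c and Myo7b in the SOX9-Halo spheroids rest on 31 to 37 reads.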
